A study of Drosophila mojavensis with 97 samples.

Results

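The arrays of adult *Drosophila mojavensis* females from Organ Pipe National Monument (OPNM) that had been held at 15 °C were compared with those held at 25 °C, the temperature at which the cultures and adults had been kept before. Arrays were selected by the population code and temperature in their titles, which gave 16 of the 97 arrays in the series, 8 at 15 °C and 8 at 25 °C. At each temperature 4 arrays came from females that had developed on fermenting agria cactus and 4 from females that had developed on organ pipe cactus, and the cold step was the mean of the 2 cactus differences, 15 minus 25 °C, with equal weight. All flies were labelled wild-type and came from one laboratory stock, OPNM08. The stock was made by combining isofemale lines and mass rearing them, so that it is a laboratory population and not a sample taken directly from the field. Females were 7 days old, were held for 12 hr on banana food in the light, and were pooled in groups of about 30 for each RNA sample. The series covers 3 other populations, Punta Onah (PO), Punta Prieta (PP), and San Quintin (SQ), and a further temperature, 35 °C. Nothing in the labels says how samples were placed on slides, so the p-values measure the spread between RNA samples. For single transcripts that spread was taken within groups over all 97 arrays, and not from these 16 alone.

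A fly has no internal source of heat, and cooling slows its metabolism, its feeding, and the maturation of its eggs. In a female, the follicle cells around each growing oocyte secrete the proteins of the vitelline membrane and then the chorion, the layers of the eggshell. Lipases release fatty acids from stored or dietary fat, serine peptidases and the inhibitors that hold them in check act in the gut and in the hemolymph, and cytochromes P450 metabolize hormones and plant compounds. Small heat shock proteins are chaperones best known for their induction by high temperature. RNA was taken from pooled flies, so that fewer cells of a type and less RNA per cell cannot be told apart.

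Each array carried 14528 transcripts, and the values the authors deposited are log2 expression values made by the RMA algorithm. Array medians lay between 9.868 and 10.023 and interquartile ranges between 2.905 and 3.173. Replicates 1 and 2 of the organ pipe flies at 25 °C stood apart from the rest. Their median correlations with the other 15 arrays, across transcripts, were 0.969 and 0.947, against 0.971 to 0.987 for the other 14 arrays, and their array medians of 9.887 and 9.868 were the 2 lowest. Replicate 1 lay only just below those 14 arrays in correlation. Within their own group the median correlations of replicates 1 and 2 were 0.986 and 0.973. The lowest such value was 0.968, in agria 15 °C replicate 2. The array medians averaged 9.989 ± 0.033 at 15 °C and 9.948 ± 0.052 at 25 °C (SD, n = 8 each; difference 0.041, exact two-sided permutation test, p = 0.0758). The interquartile ranges averaged 3.035 ± 0.093 at 15 °C and 3.012 ± 0.063 at 25 °C (difference 0.023, p = 0.562 in the same exact permutation test). Results that rest on those 2 arrays are given with and without them.

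**Figure D1:**
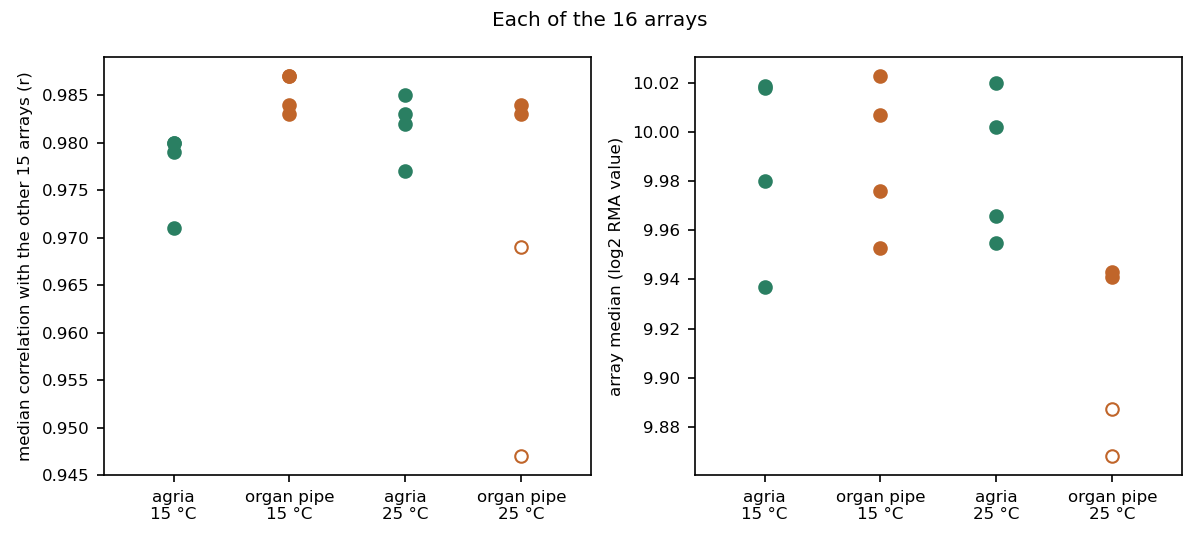
The 16 OPNM arrays by cactus and temperature, 4 in each column, with the median correlation of each array with the other 15 on the left and the array median (log2 RMA value) on the right; open circles are organ pipe 25 °C replicates 1 and 2. Both open circles lie below every other array in both panels.

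At 15 °C, a small set of transcripts rose by a factor of up to 28.6 in females from both cacti, among them transcripts for a lipase domain protein, a heme-binding protein, and a Kazal-type peptidase inhibitor. A smaller set fell, among them transcripts of the vitelline membrane. In all, 400 transcripts passed an adjusted p of 0.01 (limma, Benjamini-Hochberg over all transcripts), 2.75% of those tested, with 362 higher (2.49%) and 38 lower (0.262%) at 15 °C, while the median difference over all transcripts was -0.06. A change of at least 1.5 times was reached by 254 of them, 228 higher (1.57%) and 26 lower (0.179%), which is 1.75% of all transcripts. The higher transcripts had a median difference of 0.66 and the lower ones of -0.84. Differences of at least 2 on the log2 scale were found in 18 of those that rose and in 7 of those that fell.

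The number of cold-higher transcripts depended on few arrays. Without organ pipe 25 °C replicates 1 and 2, 141 transcripts passed (0.971%), 107 higher (0.737%) and 34 lower (0.234%), and 120 of them by at least 1.5 times (0.826%). All 107 of those higher transcripts were among the 362, which is 29.6% of them, and 29 of the 38 lower transcripts passed again, which is 76.3%. Those 2 arrays had the 2 lowest values of the 16 in 269 of the 362 higher transcripts, or 74.3%, against 12.7% of all transcripts. The 255 higher transcripts that did not pass without them had a median difference of 0.60 with all arrays, and none of them reached 2 on the log2 scale. With 2 of the 4 arrays of a group left out the standard error is also larger, so a lost call need not mean a smaller step. Leaving out 1 array at a time, the count was 226 without organ pipe 25 °C replicate 2, 262 without agria 15 °C replicate 1, 609 without organ pipe 25 °C replicate 3, and 752 without agria 15 °C replicate 2. The count of at least 1.5 times was 401 without organ pipe 25 °C replicate 3 and 467 without agria 15 °C replicate 2. With both organ pipe arrays and agria 15 °C replicate 2 left out, 219 transcripts passed, 169 of them by at least 1.5 times.

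The groups did not overlap for 68 of the 362 higher transcripts, where all 8 arrays at 15 °C lay above all 8 at 25 °C, a pattern found in 71, or 0.489%, of all transcripts. They did not overlap for 10 of the 38 lower transcripts, and 15, or 0.103%, of all transcripts had all 8 values at 15 °C below those at 25 °C. The tables of the study attach a gene name, an ortholog, or a functional term to 1255 transcripts, and 158 of these (12.6%) were called, 146 higher and 12 lower, with a median difference of 0.14 (0.06 without the 2 organ pipe arrays). Much of that annotation was made for genes the study had called in comparisons of these same arrays, so that this share is not independent of the calls. The functional lists below are drawn from these annotated transcripts.

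FBtr0162871, which no table names, had the largest cold step. Its expression was between 11.60 and 12.76 at 15 °C (median 12.19), against 6.71 to 8.35 at 25 °C (median 7.30). All 8 cold arrays lay more than 3 log2 units above the highest value at 25 °C, and the step was 4.84 ± 0.27 (SE; 28.6-fold, adjusted p = 4.21e-25). At 35 °C it averaged 7.39, close to its level at 25 °C.

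FBtr0174470, annotated to iron and heme binding, was the highest of the transcripts with a term. It ranged from 12.24 to 13.47 at 15 °C (median 12.95) and from 7.59 to 9.92 at 25 °C (median 8.02). The groups did not overlap, although 3 of the 4 organ pipe arrays at 25 °C lay above all agria arrays at that temperature. The step was 4.37 ± 0.32 (20.7-fold, adjusted p = 1.5e-18). FBtr0161362, an oxidoreductase transcript with terms for iron and vitamin binding, ranged from 7.71 to 9.06 at 15 °C (median 8.49) and from 6.68 to 7.16 at 25 °C (median 6.89), and rose by 1.5 ± 0.20 (adjusted p = 4.36e-08).

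Of the transcripts for lipid metabolism, FBtr0163948, which encodes a protein with a lipase domain, rose most. It had values of 9.56 to 11.28 at 15 °C (median 10.79), against 6.76 to 7.80 at 25 °C (median 7.09). No cold array came within a log2 unit of the 25 °C arrays, and the step was 3.41 ± 0.23 (10.6-fold, adjusted p = 1.17e-20). CG8093, whose *D. melanogaster* ortholog is a triglyceride lipase, overlapped slightly between the groups, with 11.48 to 12.78 at 15 °C (median 12.13) and 10.78 to 11.59 at 25 °C (median 11.40). It rose by 0.91 ± 0.15 (adjusted p = 5.01e-06). FBtr0164871, another lipase domain transcript, rose by 0.53 ± 0.10 (adjusted p = 0.000154), and its adjusted p was 0.0153 without the 2 organ pipe arrays. In all, 3 of the 10 transcripts for lipid metabolism and desaturation were higher and none was lower, with a median difference of 0.45, against 12.6% called and a median of 0.14 over annotated transcripts, and 2.49% higher and a median of -0.06 over all transcripts. Without the 2 organ pipe arrays 2 of 10 passed and the median was 0.22. In that setting 45 of the 1255 annotated transcripts were higher and 9 lower, with a median of 0.06. Lsd-1, a protein that coats lipid droplets, did not pass, with 0.03 ± 0.13 (adjusted p = 0.915).

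A pair of transcripts with a Kazal domain, the fold of a family of secreted peptidase inhibitors, rose. FBtr0175110 ranged from 12.09 to 13.10 at 15 °C (median 13.02) and from 9.19 to 10.57 at 25 °C (median 9.62), with no overlap. Its step was 2.91 ± 0.25 (7.53-fold, adjusted p = 1.86e-15). FBtr0166996 ranged from 10.23 to 11.38 at 15 °C (median 10.57) and from 8.96 to 10.07 at 25 °C (median 9.44), again without overlap, and rose by 1.31 ± 0.24 (adjusted p = 5.11e-05). The list of peptidase inhibitors was built from other terms and does not hold these 2 transcripts. Of its 41 members 9 (22%) were higher and none was lower, with a median difference of 0.28, against 12.6% called and a median of 0.14 over annotated transcripts and 2.49% higher over all. The largest steps in it were 1.04 for FBtr0166234, 1.01 for FBtr0168479, 0.94 for FBtr0168484, and 0.85 for FBtr0174612, all annotated to inhibition of enzymes. Without the 2 organ pipe arrays, 2 of the 41 passed, FBtr0168484 with 0.95 (adjusted p = 0.000681) and FBtr0174612 with 0.62 (adjusted p = 0.00554). In that setting 45 of the 1255 annotated transcripts were higher and 9 lower, and 0.737% of all transcripts were higher.

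Other annotated transcripts that rose had varied functions. FBtr0167057, an extracellular protein, ranged from 9.91 to 11.45 at 15 °C (median 10.67) and from 7.68 to 9.40 at 25 °C (median 8.52), and rose by 2.0 ± 0.31 (adjusted p = 2.53e-06). FBtr0163080, a membrane protein, ranged from 11.86 to 12.99 at 15 °C (median 12.77) and from 10.58 to 11.54 at 25 °C (median 10.93), with a step of 1.58 ± 0.20 (adjusted p = 1.11e-08). FBtr0174510, for amino acid transport and metabolism, ranged from 9.04 to 9.74 at 15 °C (median 9.56) and from 7.43 to 8.41 at 25 °C (median 7.99), with a step of 1.49 ± 0.18 (adjusted p = 4.96e-10). In none of these 3 did any cold array fall within the range at 25 °C. FBtr0175368, annotated to purine nucleotide synthesis and protein phosphorylation, had no overlap either, with a step of 1.24 ± 0.15 (adjusted p = 7.53e-10). FBtr0174409, with a domain like that of choline kinases, differed from these. It ranged from 11.25 to 12.46 at 15 °C (median 12.10) and from 8.71 to 11.88 at 25 °C (median 11.17), where the 2 lowest values, 9.03 and 8.71, were those of the organ pipe arrays that stood apart. Its step of 1.25 ± 0.24 (adjusted p = 0.00014) was 0.67 without them (adjusted p = 0.165).

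The next 4 transcripts have no annotation and are described after their values were seen. FBtr0163894 ranged from 12.13 to 13.18 at 15 °C and from 8.07 to 9.58 at 25 °C, with a step of 4.0 ± 0.22 (adjusted p = 4.21e-25), and FBtr0175027 had a step of 3.95 ± 0.24 (adjusted p = 2.49e-23). FBtr0166499 and FBtr0166500, with consecutive identifiers, shared an uneven pattern at 25 °C. At 15 °C the 8 arrays lay between 13.80 and 14.59 for FBtr0166499 and between 13.78 and 14.35 for FBtr0166500. At 25 °C, FBtr0166499 had 9.05 to 9.38 in the 4 agria arrays, and 11.95, 12.16, 9.30, and 12.01 in the organ pipe arrays. FBtr0166500 had 8.91 to 9.27 in agria at 25 °C, and 12.61, 12.86, 8.65, and 12.74 in organ pipe. In both transcripts 3 of the 4 organ pipe arrays were thus several log2 units above the agria arrays at 25 °C, and replicate 3 was at the agria level. The cold step of FBtr0166499 was 4.90 in agria and 2.91 in organ pipe, and that of FBtr0166500 was 5.14 in agria and 2.37 in organ pipe.

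The 18 transcripts that rose by at least 2 on the log2 scale were chosen by that difference in these same arrays. That their median in every cold array lay above that in every array at 25 °C is therefore no separate result. At 25 °C, 3 of the 4 organ pipe arrays lay above the agria arrays. The median of their values was 11.49 to 12.61 in the arrays at 15 °C, 8.33 to 8.66 in the agria arrays at 25 °C, and 9.46, 9.09, 8.59, and 9.50 in organ pipe replicates 1 to 4 at 25 °C. The plot of single transcripts by array shows both patterns.

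**Figure D2:**
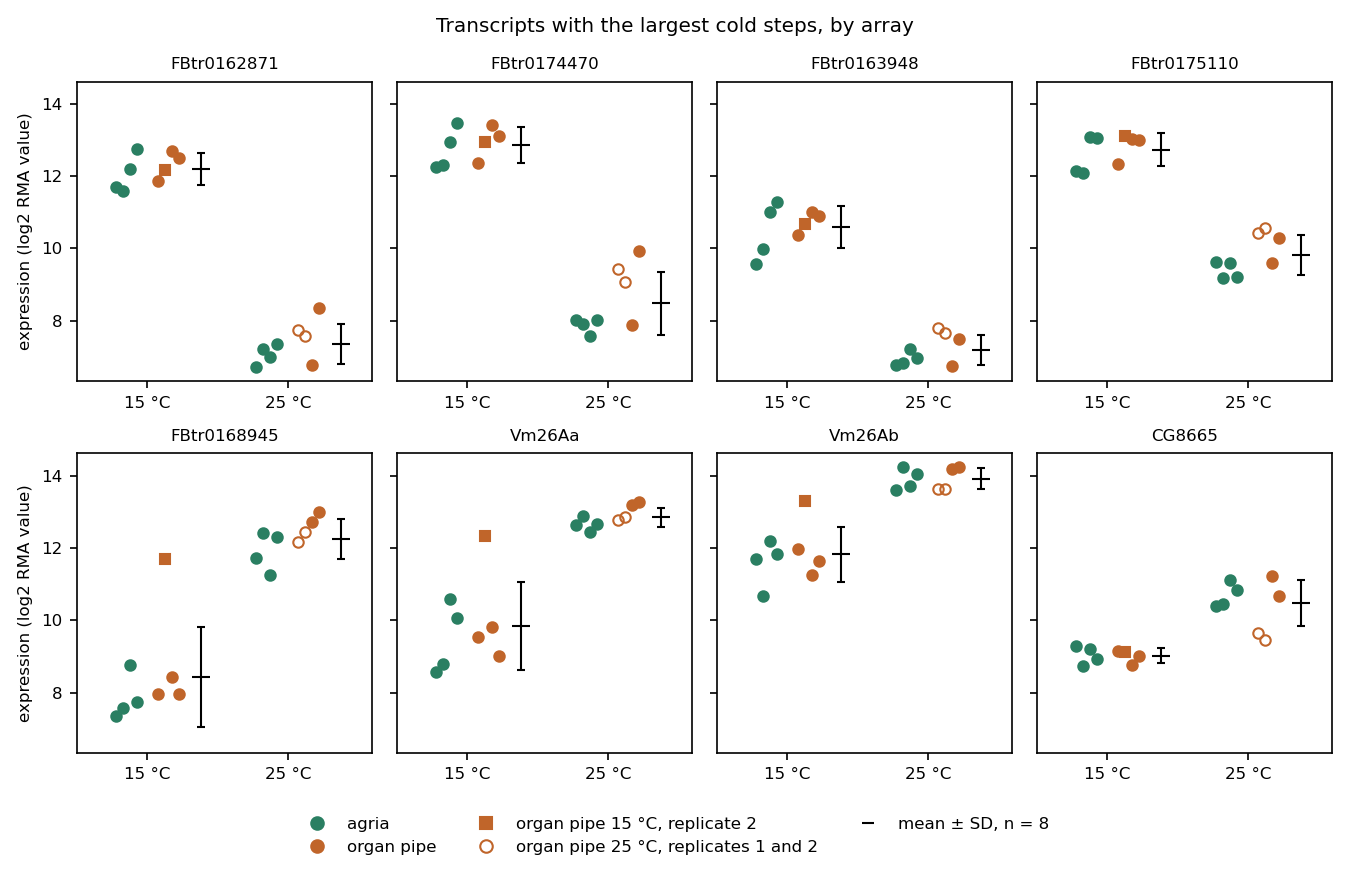
Expression (log2 RMA value) of 4 transcripts higher and 4 lower at 15 °C in each of the 16 OPNM arrays, with agria in green and organ pipe in orange, and the mean ± SD (n = 8) to the right of each temperature. The square is organ pipe 15 °C replicate 2, which at 15 °C has the highest value of FBtr0168945, Vm26Aa, and Vm26Ab; open circles are organ pipe 25 °C replicates 1 and 2, the 2 lowest values of CG8665 at 25 °C.

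The partial annotation paired only 2 eggshell transcripts with the array, both for the vitelline membrane, and both fell at 15 °C. No chorion transcript was on the eggshell list, so the chorion was not tested. The study reports the opposite direction for several chorion genes, with higher expression in the cold over all its populations. Vm26Aa (GI11336, FBtr0162061) and Vm26Ab (GI17534, FBtr0168259) are orthologs of *D. melanogaster* genes for structural proteins of the vitelline membrane, made by follicle cells. Vm26Aa ranged from 8.56 to 12.34 at 15 °C (median 9.68), against 12.45 to 13.26 at 25 °C (median 12.81). The groups did not overlap, but 1 cold array, organ pipe replicate 2 at 12.34, lay just under the 25 °C range while the other 7 did not exceed 10.59. The step was -3.0 ± 0.30 (7.99-fold lower at 15 °C, adjusted p = 2.07e-12). Vm26Ab ranged from 10.67 to 13.29 at 15 °C (median 11.76) and from 13.61 to 14.24 at 25 °C (median 13.88), and the highest cold value was again that of organ pipe replicate 2. Its step was -2.10 ± 0.21 (4.27-fold lower, adjusted p = 3.04e-12). Without that array the steps were -3.36 for Vm26Aa (adjusted p = 7.66e-16) and -2.31 for Vm26Ab (adjusted p = 1.4e-14). At 35 °C, Vm26Aa averaged 11.75 and Vm26Ab 12.87, between the means at 15 °C (9.84 and 11.82) and at 25 °C (12.84 and 13.91). These 2 transcripts are also the only follicle cell markers that could be paired with the array, and their summed level was 11.02 to 13.89 at 15 °C and 14.21 to 14.83 at 25 °C.

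The same array had high values of other cold-lower transcripts. FBtr0168945, with no annotation, had the lowest step of all transcripts. It ranged from 7.34 to 11.68 at 15 °C (median 7.95) and from 11.25 to 13.00 at 25 °C (median 12.35), and the groups overlapped only through organ pipe 15 °C replicate 2 at 11.68. The step was -3.82 ± 0.39 (14.2-fold lower, adjusted p = 3.87e-12), and -4.27 without that array (adjusted p = 3.47e-15). Of the 7 transcripts that fell by at least 2, all 7 had their highest cold value in that array, and the median of their values was 12.34 there. In agria 15 °C replicates 1 to 4 that median was 9.13, 9.45, 10.59, and 10.21, and in the arrays at 25 °C it was 12.16 to 13.40. For the 18 transcripts that rose by at least 2, the same array had a median of 12.22, inside the range of the other cold arrays. FBtr0162051 and FBtr0172526, named after their values were seen, each had a step of -2.41, and of -2.72 and -2.68 without that array.

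CG8665 (GI12253), the ortholog of a *D. melanogaster* formyltetrahydrofolate dehydrogenase, an enzyme of folate metabolism, fell as well. It ranged from 8.72 to 9.29 at 15 °C (median 9.06) and from 9.44 to 11.21 at 25 °C (median 10.56), without overlap. The cold arrays varied little and the 2 lowest 25 °C arrays were organ pipe replicates 1 and 2. The step was -1.45 ± 0.19 (2.74-fold lower, adjusted p = 2.28e-08), and -1.80 without those arrays (adjusted p = 5.9e-11). FBtr0175295, a transcript with terms for chitin binding, ranged from 9.10 to 10.67 at 15 °C (median 9.71) and from 9.79 to 11.77 at 25 °C (median 11.17), with a step of -1.28 ± 0.18 (adjusted p = 1.26e-07). FBtr0169070 and FBtr0170936, both annotated to DNA binding and the regulation of transcription, fell by 1.07 ± 0.15 (adjusted p = 2.96e-07) and by 0.87 ± 0.17 (adjusted p = 0.00022). FBtr0166098, a nucleotide-binding protein, fell by 1.38 ± 0.26 (adjusted p = 0.000147), and FBtr0168755, a zinc-binding protein, fell by 0.50 ± 0.08 (adjusted p = 2.15e-06). The membrane proteins FBtr0164099 and FBtr0166609 fell by 0.44 and by 0.39 (adjusted p = 0.000616 and 0.00985), with adjusted p-values of 0.0158 and 0.113 when the 2 organ pipe arrays were left out.

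The 4 enzymes of ecdysteroid synthesis that the annotation pairs with a transcript, all cytochromes P450, did not pass. The steps were 0.23 ± 0.12 for shd (adjusted p = 0.358), 0.22 ± 0.10 for dib (0.291), 0.18 ± 0.12 for sad (0.548), and 0.15 ± 0.22 for phm (0.785). For phm the groups overlapped fully, with 10.13 to 11.37 at 15 °C (median 10.56) and 8.84 to 11.47 at 25 °C (median 10.44), and the step was -0.34 in agria and 0.63 in organ pipe. Of all 25 cytochromes P450, 4 (16%) were higher and none lower, with a median of 0.20, near the 12.6% and 0.14 of annotated transcripts, where 2.49% of all transcripts were higher. FBtr0174075 rose by 0.91 ± 0.19 (adjusted p = 0.000556), and it was the only 1 of the 4 that passed without the 2 organ pipe arrays (0.89, adjusted p = 0.00898). FBtr0168283 also had a step of 0.91 (adjusted p = 0.00686), which was 0.47 without them (adjusted p = 0.756). With those arrays left out, 45 of the 1255 annotated transcripts were higher and 9 lower.

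Transcripts of 5 small heat shock proteins of the alpha-crystallin family, which the study named for their response to temperature, had small cold steps. GI11114 ranged from 12.47 to 13.10 at 15 °C (median 12.75) and from 11.95 to 12.67 at 25 °C (median 12.48), and rose by 0.35 ± 0.08 (adjusted p = 0.000711; 0.28 and adjusted p = 0.0639 without the 2 organ pipe arrays). The other 4 did not pass, with steps of 0.28 for GI19527, -0.21 for GI12244, -0.27 for GI13085, and -0.37 for GI13088. Their highest mean levels were at 35 °C. GI13088 averaged 9.55 ± 0.31 at 15 °C and 9.92 ± 0.36 at 25 °C (SD, n = 8 each), and 12.14 at 35 °C, and GI12244 averaged 11.77 ± 0.16 at 15 °C, 11.99 ± 0.27 at 25 °C, and 13.65 at 35 °C. Of the 10 transcripts annotated to heat shock and chaperones, 1 passed (10%), against 12.6% of annotated transcripts and 2.75% of all. None of the 10 passed without the 2 organ pipe arrays. The median step of the list was 0.00 with all arrays.

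Among the other functional lists, calls were few, and they stand beside 12.6% called and a median of 0.14 over annotated transcripts, and 2.49% higher over all. Of 77 serine peptidases, 3 were higher (3.9%) with a median of 0.26, namely FBtr0166315 (0.75), FBtr0161578 (0.70), and FBtr0174914 (0.59), and none passed without the 2 organ pipe arrays, when the median was 0.05. Of 11 binding proteins for odorants, pheromones, or juvenile hormone, 3 were higher, and FBtr0173229, with a domain that binds juvenile hormone, had no overlap between 10.47 to 11.41 at 15 °C (median 10.81) and 9.50 to 10.36 at 25 °C (median 10.04). Its step was 0.87 ± 0.12 (adjusted p = 7.8e-08), and it was the only member that passed without those arrays (0.78, adjusted p = 2.37e-05). CG10407, a member with the same domain that the study named, did not pass (-0.37, adjusted p = 0.277). Of 20 transcripts for immune recognition and defence, 1 passed, FBtr0162660, annotated to peptidoglycan metabolism (0.98, adjusted p = 0.00232), and none without the 2 arrays. Of 23 transcripts for cuticle and chitin, 1 was higher, FBtr0174830 (0.52), and 1 was lower, FBtr0175295. Without the 2 arrays FBtr0174830 kept a step of 0.52 but did not pass (adjusted p = 0.0503), and FBtr0175295 passed (adjusted p = 1.26e-07).

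Per, a gene of the circadian clock, was 1 of 3 transcripts on the circadian list. It ranged from 10.69 to 11.56 at 15 °C (median 11.14) and from 9.35 to 11.37 at 25 °C (median 10.61), with a step of 0.65 ± 0.15 (adjusted p = 0.00371) that was 0.45 without the 2 organ pipe arrays (adjusted p = 0.258). The other members, e and disco, did not pass (0.35 and -0.00, adjusted p = 0.432 and 0.992). None of the 56 transcripts of oxidative phosphorylation passed (median 0.12), nor of 18 for histones, DNA replication, and repair (median -0.13), 11 for the ribosome (median 0.07), or 3 glycosidases (median 0.51). For oxidative phosphorylation the median was -0.01 in agria and 0.27 in organ pipe, and 0.02 over both cacti without the 2 arrays.

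Markers of other tissues were compared in the same arrays. The summed level of 4 gut markers was 13.56 to 14.69 at 15 °C and 13.21 to 14.37 at 25 °C, and that of 3 flight muscle markers was 13.55 to 14.52 at 15 °C and 12.95 to 14.05 at 25 °C. In both lists the lowest 2 of the 16 sums were those of organ pipe 25 °C replicates 1 and 2, with 13.53 and 13.21 for gut and 13.19 and 12.95 for muscle. Low values of some of these markers were not limited to those arrays. Agria 15 °C replicate 2 had the lowest cold values of fln (muscle, 10.01), Jon25Bi (gut, 10.70), and epsilonTry (gut, 10.44). The cold medians of the 3 were 12.02, 12.19, and 11.58. The sum of 3 eye and antenna markers was 12.84 to 13.46 at 15 °C and 12.78 to 13.51 at 25 °C. None of these markers passed the threshold, and their part in the counts was not tested.

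**Figure D3:**
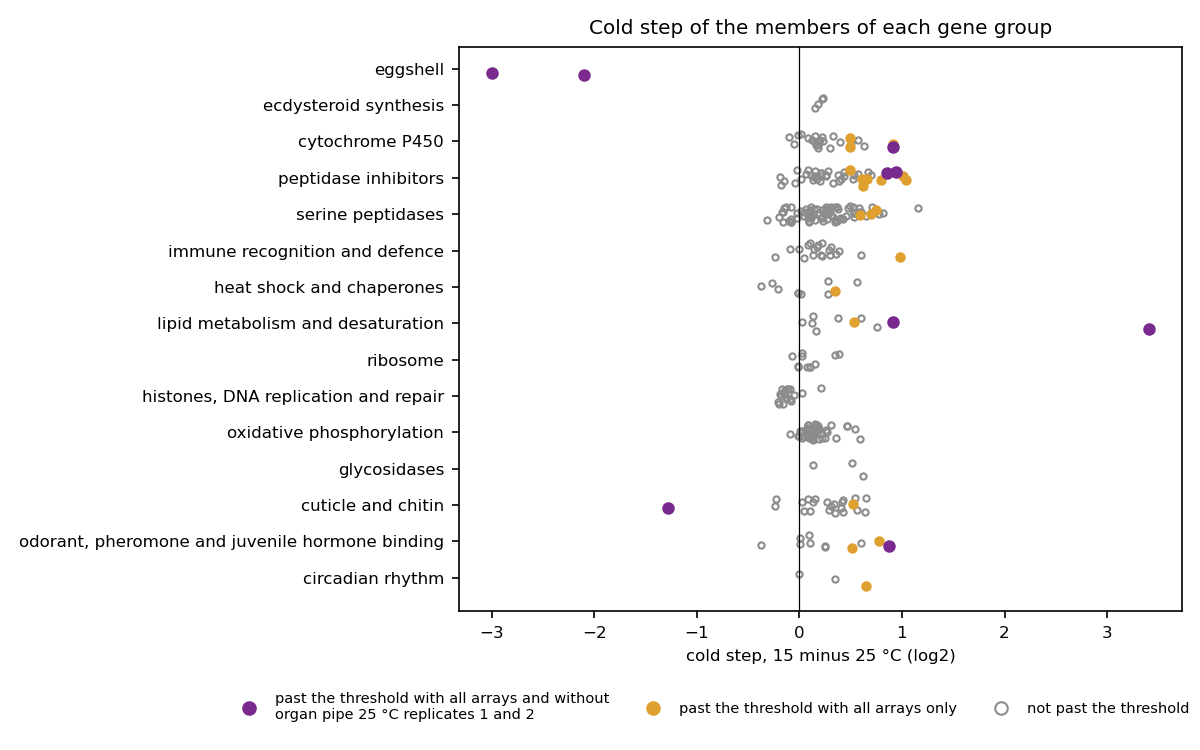
Cold step (15 minus 25 °C, log2) of each member of 15 functional lists, one row per list and one point per transcript. Filled purple points passed an adjusted p of 0.01 with all arrays and without organ pipe 25 °C replicates 1 and 2, orange points only with all arrays, and open points did not pass; the eggshell points lie far to the left and 1 lipase far to the right.

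The 2 cacti gave very different counts. In flies from organ pipe, 457 transcripts passed (3.15%), 438 higher (3.01%) and 19 lower (0.131%) at 15 °C, and in flies from agria 63 passed (0.434%), 42 higher (0.289%) and 21 lower (0.145%). Without organ pipe 25 °C replicates 1 and 2 the count was 42 in organ pipe (0.289%) and 65 in agria. The organ pipe count was also 248 without 15 °C replicate 3, 274 without 15 °C replicate 4, 194 without 25 °C replicate 1, 110 without 25 °C replicate 2, and 787 without 25 °C replicate 3. The cold-higher and cold-lower transcripts were called on the mean of the agria and organ pipe steps, so their medians are not independent of the calls. Over all transcripts the median step was -0.02 in agria and -0.07 in organ pipe, or -0.03 without the 2 arrays. Over the 362 cold-higher transcripts it was 0.42 in agria and 0.91 in organ pipe, or 0.60 without them. Over the 38 cold-lower transcripts it was -1.04 in agria and -0.87 in organ pipe, or -1.13 without them. The difference between the cacti in the cold step was tested directly, and no transcript passed an adjusted p of 0.01 in limma, with moderation or without, or of 0.05 with moderation (700 at an unadjusted p under 0.05, lowest adjusted p = 0.911). Without organ pipe 25 °C replicate 3, 1 transcript passed.

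**Figure D4:**
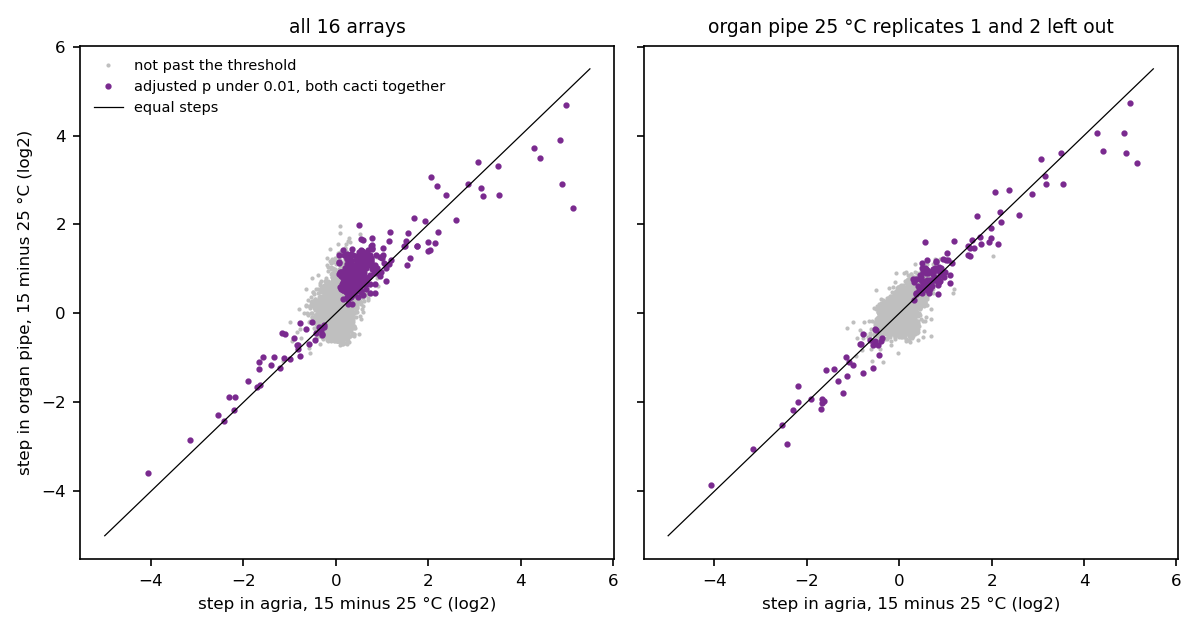
Cold step of each transcript in organ pipe flies against that in agria flies (both 15 minus 25 °C, log2), with all 16 arrays on the left and without organ pipe 25 °C replicates 1 and 2 on the right. Purple points passed an adjusted p of 0.01 over both cacti, 400 on the left and 141 on the right, and the line marks equal steps; the cloud of purple points above the line near the origin on the left is sparser on the right.

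The cold step was also taken in the other 3 populations, which share no arrays with OPNM. At the same threshold 128 transcripts passed in PO (0.881%), 155 in PP (1.07%), and 258 in SQ (1.78%). Of the 362 cold-higher OPNM transcripts, 61 were also higher in PO, 65 in PP, and 129 in SQ, against 82 (0.564%), 81 (0.558%), and 227 (1.56%) higher among all 14528, and none was lower in any of the 3. All 3 populations shared 49 of them, and 229 passed in none. Among all 14528 transcripts, 73 passed in all 3 populations, in either direction, and 14190 in none. Of the 107 that passed without the 2 organ pipe arrays, 45 were also higher in all 3 populations and 23 passed in none, while of the other 255, 4 passed in all 3 and 206 in none. Of the 38 cold-lower transcripts, 19 were also lower in PO, 24 in PP, and 20 in SQ, against 46 (0.317%), 74 (0.509%), and 31 (0.213%) lower among all transcripts. All 38 had a difference below 0 in each of the 3, while among all 14528 transcripts 7152 in PO, 6988 in PP, and 6385 in SQ had a difference above 0.

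The largest OPNM steps were also found in the other populations. FBtr0162871 had steps of 4.84 in OPNM, 5.29 in PO, 5.31 in PP, and 4.97 in SQ, and FBtr0163948 had 3.41 in OPNM, 3.52 in PO, 3.66 in PP, and 3.20 in SQ. The eggshell transcript Vm26Aa had -3.0 in OPNM, -2.19 in PO, -2.02 in PP, and -1.51 in SQ, and Vm26Ab had -2.10 in OPNM, -1.91 in PO, -1.42 in PP, and -1.08 in SQ. No transcript passed an adjusted p of 0.01 when the OPNM step was compared with the mean step of the other 3 (1155 at an unadjusted p under 0.05, lowest adjusted p = 0.0142) or with the step in PO, the other mainland population (1401 and 0.0304), in limma with moderation or without. An adjusted p under 0.05 was reached by 12 transcripts in the first comparison and by 2 in the second. In the comparison with all 3, 24 transcripts passed 0.01 without agria 15 °C replicate 2, 43 without organ pipe 25 °C replicate 3, 2 without agria 25 °C replicate 3, and 1 each without organ pipe 15 °C replicate 1 and 25 °C replicate 4. In the comparison with PO, 8 passed without agria 15 °C replicate 2 and 5 without organ pipe 25 °C replicate 3.

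FBtr0173060, CG9515, and FBtr0169175 were among the transcripts with the lowest p-values in these comparisons, and are named here after their values were seen. FBtr0173060 ranged from 11.47 to 12.90 at 15 °C (median 11.89) and from 9.78 to 12.36 at 25 °C (median 10.73) in OPNM, where the low values were the 4 organ pipe arrays at 25 °C, 9.78 to 10.29. Its step was 1.11 in OPNM, -0.17 in PO, -0.50 in PP, and 0.07 in SQ, with a difference from the mean of the 3 of 1.31 (adjusted p = 0.0142), and of 1.28 without the 2 organ pipe arrays (adjusted p = 0.139). For CG9515 the step was 0.62 in OPNM, -0.26 in PO, -0.28 in PP, and -0.05 in SQ, with a difference of 0.81 (adjusted p = 0.0142) that was 0.56 without those arrays (adjusted p = 0.86). FBtr0169175 had values of 12.26 to 13.29 at 15 °C (median 12.73), against 8.94 to 10.83 at 25 °C (median 10.45), without overlap. Its step was 2.53 ± 0.23 in OPNM and 0.90 in PO. The difference of 1.63 had an adjusted p of 0.0304, and without the 2 arrays it was 1.34 (adjusted p = 0.84). CG8665 was not among those with the lowest p-values, and its step was -1.45 in OPNM, -0.78 in PO, -0.85 in PP, and -0.22 in SQ. Its difference from the mean of the 3 was -0.84 (adjusted p = 0.0925), and -1.18 without the 2 arrays (adjusted p = 0.0137).

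**Figure D5:**
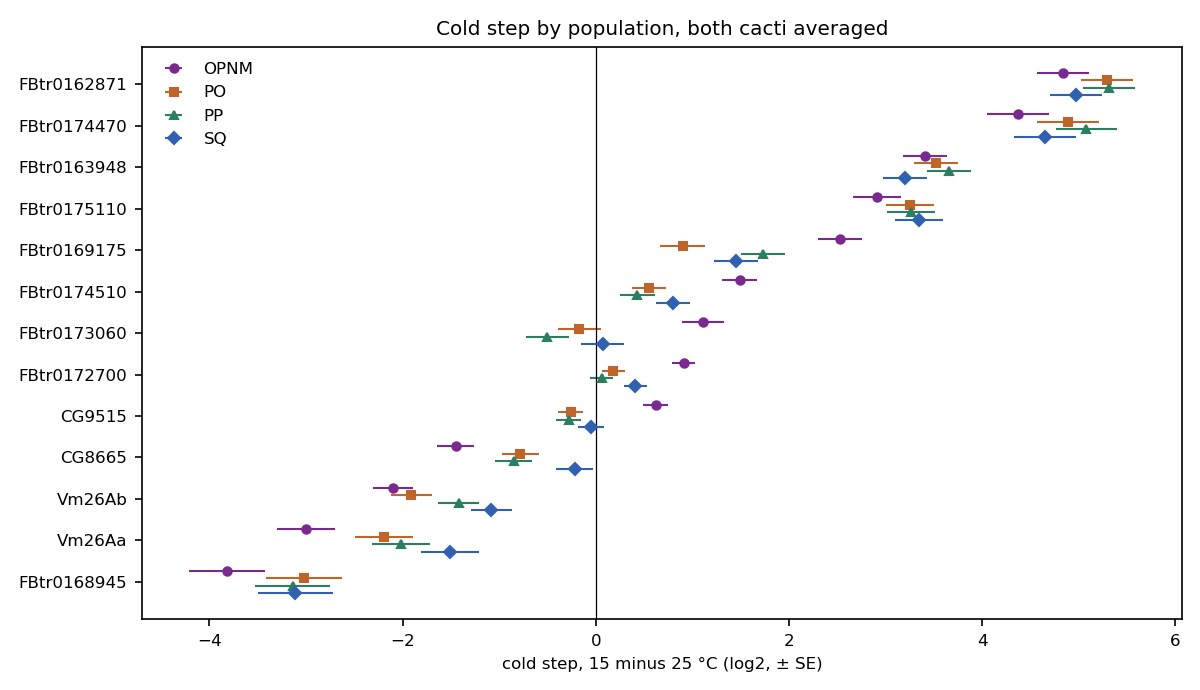
Cold step (15 minus 25 °C, log2, mean of both cacti ± SE from the fit) of 13 transcripts in OPNM, PO, PP, and SQ, 16 arrays per population. The upper 4 transcripts had steps between 2.91 and 5.31 in all 4 populations, FBtr0173060 and CG9515 lay above 0 in OPNM and near or below 0 in the others, and the lowest 3 lay below 0 in all 4.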

How the data were processed

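RNA of pooled females was hybridized to NimbleGen one-color arrays with 9 probes per transcript, designed on release 1.3 of the *D. mojavensis* genome. The authors quantile-normalized spot intensities in NimbleScan 2.5 and summarized probes with RMA, which the submitters' processing notes also name, and the values they deposited are log2 values, used here without further scaling. Raw intensities and background were not used here.

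With limma 3.58.1 in R 4.3.3, 1 mean was fitted for each of 24 groups over 97 arrays (lmFit and eBayes, 73 residual degrees of freedom). Contrasts were adjusted by Benjamini-Hochberg over 14528 transcripts, with a threshold of 0.01. Array measures were compared with exact permutation tests (scipy 1.17.1). The test was checked on simulated data. The number of arrays limits the precision.

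Named transcripts were the 10 highest and 10 lowest annotated, the 2 highest and 2 lowest of all, genes named by the study, and up to 4 called members of each list. Members and lists were chosen with earlier results of these data known. Of 14528 transcripts, 4000 have a gene identifier, since the annotation was available only in part. Functional lists used words in those annotations. Alternatives are described below the report.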

Additional observations from a re-analysis of the deposited data

Results flagged for a closer look

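In 280 groups of 4 arrays, for the named transcripts, 16 values lay far from the other 3 of their group (5.71%), where chance alone would mark about 5%. In organ pipe flies at 15 °C, replicate 2 was high for FBtr0168945 (11.68) and FBtr0172526 (12.32) and apart from its group for Per (10.89), replicate 1 was apart for FBtr0175110 (12.34), replicate 3 for dib (9.64) and FBtr0173338 (11.96), and replicate 4 for FBtr0166315 (8.93). In organ pipe flies at 25 °C, replicate 3 was low for FBtr0166499 (9.30), FBtr0166500 (8.65), and FBtr0163894 (8.16). In agria flies at 15 °C, replicate 2 was apart for FBtr0174409 (11.25) and FBtr0166315 (8.52). In agria flies at 25 °C, replicate 4 was apart for FBtr0174409 (10.87), GI13088 (10.55), and FBtr0172700 (11.18), and replicate 2 for FBtr0170936 (11.63).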

How the results depend on the processing

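The cold step gave 400 calls. It gave 351 with arrays centred on their medians (328 of them among the 400), 353 after another quantile normalization (336), 387 without moderation (379), 421 without the dimmest 25% of transcripts (381), 179 from the 16 OPNM arrays alone (166), with 12 residual degrees of freedom, and 714 at an adjusted p of 0.05. The 2 settings without doubtful arrays, chosen after seeing the data, gave 141 without organ pipe 25 °C replicates 1 and 2, and 219 when agria 15 °C replicate 2 was also left out. With a change of at least 1.5 times, the counts were 154, 120, and 169 for the 16 arrays and those 2 settings. For organ pipe they were 91, 42, and 45, and 843 at 0.05. The OPNM step minus the mean of the other populations gave 1 call from the arrays at 15 and 25 °C alone and 12 at 0.05, and minus PO 2 at 0.05. Leaving out 1 array at a time gave 226 to 752 calls for the cold step, 172 to 467 with at least 1.5 times, 45 to 75 in agria, 110 to 787 in organ pipe, 0 to 1 for the difference between cacti, 0 to 43 against the other populations, and 0 to 8 against PO. It moved the difference in array medians between 0.030 and 0.052 and in interquartile ranges between 0.004 and 0.042. The cause of these shifts was not tested.

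Of 53 named transcripts past the threshold, 34 passed without the 2 organ pipe arrays and 31 under every alternative, and none reversed. Steps near 0 did reverse. Lsd-1 was -0.01 with centring, -0.18 and -0.06 in the 2 settings without doubtful arrays, and -0.08 to 0.15 with 1 array left out. For phm it was -0.06 without the 2 organ pipe arrays and -0.01 to 0.22 with 1 array left out, and for disco 0.02 after quantile normalization and -0.05 to 0.06 with 1 array left out. Replicate numbers did not pair the samples. Of 24 same-numbered pairs, 10 had correlated deviations over 0.1 (lowest -0.56, highest 0.476), 3 of 16 arrays correlated best with their own number, and the replicate block gave 394 calls. With no background values, dim transcripts could not be told from background.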
